A study of Mus musculus with 6 samples.

Results

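The sites described here were CTCF peaks called in both libraries that carry the number 1, untreated and chromium-treated, and in neither library that carries the number 2. The 4 deposited peak lists held 31284 distinct sites on chromosomes 1 to 19 and X once peaks of different lists that overlapped by at least 1 bp were merged. Of these, 1019 sites had a peak in both number 1 lists, and 774 of the 1019 (76.0%) had no overlapping peak in a number 2 list. The 774 sites are called members below. They were selected on the peak calls of the 4 lists, so their presence in one pair of lists and absence from the other is a description.

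All libraries came from Hepa-1c1c7, an established mouse hepatoma cell line much used in studies of the aryl hydrocarbon receptor. One group was left untreated (0 µM chromium), with libraries untreated 1 and untreated 2. The other received 25 µM potassium chromate, a hexavalent chromium salt, for 90 min before fixation, with libraries chromium 1 and chromium 2. The 2 number 1 libraries were called against one input sample and the 2 number 2 libraries against the other, so members share a number and an input as well as peaks. The labels do not say whether the numbers stand for separate cultures. Peak lists hold no expression values, so the labelled line could not be checked by its markers.

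The lists differed in length. The number 1 lists held 11707 peaks (untreated) and 14880 peaks (chromium) on these chromosomes, and the number 2 lists 4495 and 1905. Members took up 6.61% of the untreated 1 list and 5.22% of the chromium 1 list. Of the 25555 sites with a peak in at least one number 1 list, 3.03% were members. The sites set beside them are the 10452 found in untreated 1 alone and the 13701 found in chromium 1 alone, called single-list sites. Smaller sets set beside them are 220 sites in every list but chromium 2, and 198 sites in both untreated lists only. The sites of a list all come from a single library and are not replicates, so shares are given with exact Clopper-Pearson 95% intervals, which cover counting error only, and no test was run.

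CTCF recognises a long, GC-rich DNA motif through a row of zinc fingers. Together with cohesin, the ring complex that extrudes chromatin loops, it marks loop anchors and domain boundaries, and it also binds close to many promoters. Hexavalent chromium enters cells through anion channels and is reduced inside to forms that bind DNA and protein.

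The sequences that follow show what the members hold near transcription starts. RefSeq gives, on GRCm38.p6 (mm10 coordinates), 300 bases around the starts of protein-coding genes, 250 before and 50 after, in 21045 windows. Members overlapped 77 of these windows (0.366% of all), which belong to 74 genes and 69 sites. Each window was searched on both strands for letters from the core of the CTCF motif, CCA, any 2 bases, AG, any 2 bases and GGC, and for the shorter AGGGGGC. The 12 distinct matches to the longer letters, at 11 member sites, are shown in capitals with the bases on either side, each read 5′ to 3′ on the strand of the match.
Rsad1, chr11:94549279-94549308, minus strand: caacagtgtCCACCAGGTGGCgccgcagac
C1qbp, chr11:70983078-70983107, minus strand: tggcggctcCCAGCAGAGGGCgcggtccgg
Alkbh4, chr5:136136013-136136042, plus strand: ccggggagcCCAGGAGGTGGCgcacaacaa
Mdm2, chr10:117710804-117710833, minus strand: cctattggtCCAGGAGGCGGCgtcgggcgt
Mdm2, chr10:117710817-117710846, plus strand: cctcctggaCCAATAGGAGGCggggggcgg
Dennd6b, chr15:89196634-89196663, plus strand: ccgggtcggCCAGTAGGTGGCtagtgtggc
Nsfl1c, chr2:151494113-151494142, plus strand: acataggggCCACCAGAGGGCgcgaggcgg
Car7 and Nae1, chr8:104534652-104534681, plus strand: agcgcgcagCCAGTAGGGGGCgccgacgct
Homer3, chr8:70282954-70282983, plus strand: cgtagctggCCAGCAGGGGGCgctgggcag
Rufy4, chr1:74125296-74125325, minus strand: gtcttgttgCCAGTAGATGGCggaaagggg
Ndufaf4, chr4:24898018-24898047, plus strand: tcctcccggCCACCAGGGGGCgacgagcgc
Calhm5, chr10:34096627-34096656, minus strand: cagcaaccaCCAGTAGGAGGCattatctga
The 12 matches all lay inside the member site. All also lay upstream of the transcription start, but 250 of the 300 bases of each window are upstream, so the windows largely set this. The median distance of a match from the peak midpoint was 39.5 bp in untreated 1 and 34 bp in chromium 1. In 3 of the 12 the longer letters overlapped a match to the shorter ones. The largest distances were 178 bp in untreated 1, at Rsad1, and 108 bp in chromium 1, at Mdm2.

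Full upstream stretches show the setting of such matches, each written 5′ to 3′ on the gene's strand and ending at the base before the start, with capitals for either set of letters. Rsad1, a radical SAM domain protein gene, had the best-scored member site with the longer letters, 62 bp from an annotated start that lies inside the gene record, 7717 bp from its nearer end. Mdm2, which encodes the ubiquitin ligase that turns over p53, held the longer letters in both directions a single base apart. Kifc5b, a kinesin gene, had the best-scored member site over a promoter window and only the shorter letters, which lay outside the site.
Rsad1, chr11:94549208-94549457, minus strand: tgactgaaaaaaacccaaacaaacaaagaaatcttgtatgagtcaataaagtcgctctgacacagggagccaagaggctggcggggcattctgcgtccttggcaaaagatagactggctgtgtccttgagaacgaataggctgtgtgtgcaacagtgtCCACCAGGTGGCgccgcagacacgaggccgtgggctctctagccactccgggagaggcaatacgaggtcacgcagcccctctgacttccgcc
Mdm2, chr10:117710759-117711008, minus strand: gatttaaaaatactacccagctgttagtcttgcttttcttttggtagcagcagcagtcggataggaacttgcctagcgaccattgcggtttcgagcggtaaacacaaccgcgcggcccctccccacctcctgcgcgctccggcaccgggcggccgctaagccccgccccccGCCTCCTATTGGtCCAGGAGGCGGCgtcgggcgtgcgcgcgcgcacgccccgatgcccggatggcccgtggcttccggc
Kifc5b, chr17:26916841-26917090, plus strand: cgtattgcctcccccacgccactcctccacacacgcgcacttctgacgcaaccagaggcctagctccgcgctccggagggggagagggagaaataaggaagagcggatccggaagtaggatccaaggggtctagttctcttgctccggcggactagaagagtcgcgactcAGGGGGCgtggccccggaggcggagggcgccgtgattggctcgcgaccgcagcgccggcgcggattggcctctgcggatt

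The longer letters stood in 12 of the 77 windows under members, or 15.6% (interval 8.32 to 25.6). Over all promoter windows the share was 2.37%. It was 12.8% (26 of 203; 8.54 to 18.2) under sites of untreated 1 alone and 5.76% (8 of 139; 2.52 to 11.03) under sites of chromium 1 alone. The member interval overlapped both single-list intervals, and the differences were not tested. The sets shared with a number 2 list gave 15% (6 of 40) for sites in all lists but chromium 2 and 20.8% (5 of 24) for those in both untreated lists only.

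The shorter letters gave the same order between members and all windows, at 26 of 77 (33.8%; 23.4 to 45.4) under members and 13% overall. Windows under members were richer in GC, with a median of 63.3% against 56.7% over all windows, and held a median of 23 CpG dinucleotides against 13. This was not particular to members: the medians were 63.3% and 24 under sites in all lists but chromium 2, 60% and 21.5 under those in both untreated lists only, and 59.3% and 19 under untreated 1 alone. The shorter letters stood in 40% (16 of 40), 54.2% (13 of 24) and 28.6% (58 of 203; 22.5 to 35.3) of the windows of these 3 sets. Under chromium 1 alone the medians were lower, 57.7% and 18, and 20.9% of windows (29 of 139; 14.4 to 28.6) held the shorter letters. Among all windows at or above the members' median GC, 24.6% held the shorter letters and 2.86% the longer ones. The member interval for the shorter letters, 23.4 to 45.4, included 24.6%, while that for the longer letters, 8.32 to 25.6, lay above 2.86%. These GC-rich windows were cut at the members' median, so the 2 sets were not matched on GC, and a part played by GC was not tested. A match is a description of the letters in the window, and sequence away from promoters was not searched.

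Members lay at gene ends more often than single-list sites did. The midpoint of 130 of 774 members (16.8%; 14.2 to 19.6) was within 1 kb of an end of a protein-coding gene, where an end is either the start or the 3′ end of the gene record. The share was 5.44% over the single-list sites of both lists and 5.9% over all merged sites. Taken by list, it was 6.08% (636 of 10452; 5.63 to 6.56) for untreated 1 alone and 4.96% (679 of 13701; 4.60 to 5.33) for chromium 1 alone. The member interval did not overlap either of these.

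The difference was also present close to the gene end. Within 200 bp of an end there were 53 members (6.85%), against 1.68% of untreated 1 alone and 1.16% of chromium 1 alone. The median distance from a member to the nearest gene end was 8.65 kb, and from single-list sites it was 22.4 kb and 25.8 kb. Members were not alone in this: the share within 1 kb was 24.1% (53 of 220; 18.6 to 30.3) for sites in all lists but chromium 2 and 19.2% (38 of 198; 14.0 to 25.4) for sites in both untreated lists only, and both intervals overlapped that of the members.

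**Figure D1:**
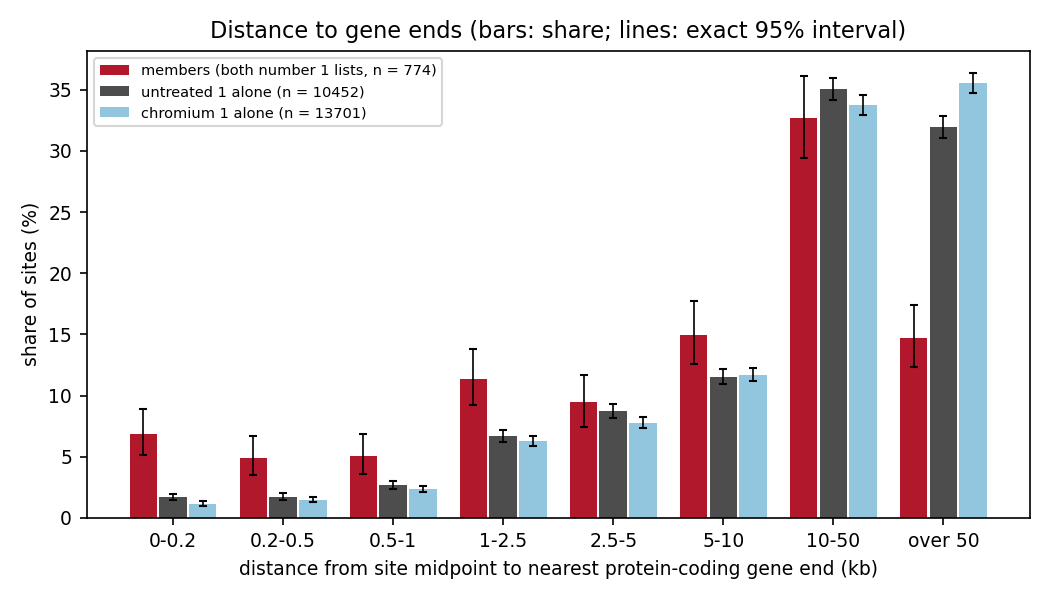
Share of sites (%) by distance from the site midpoint to the nearest end of a protein-coding gene, for members and for sites of untreated 1 alone and chromium 1 alone, with exact 95% intervals as lines. Members exceed both single-list sets in the nearest class (6.85% against 1.68% and 1.16%) and fall below them over 50 kb (14.7% against 32.0% and 35.6%).

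Most gene-end members were at starts. Of the 130, 75 (57.7%) were near a recorded start only. Another 34 (26.2%) were only near a gene end with no recorded start of that gene within 1 kb. A further 10 (7.69%) were near the recorded start of one gene and such an end of another. Such an end may be a 3′ end, or a 5′ end whose start is not recorded, as some recorded starts lie inside the gene record. The last 11 (8.46%) had a gene without a promoter record, so that start and 3′ end could not be separated. Promoter records covered 79.9% of protein-coding genes, 54.4% of those on chromosome 15 and none on chromosome 18, which is left out of every measure of starts. Off chromosome 18, 101 of 739 members (13.7%; 11.3 to 16.4) were within 1 kb of a transcription start, against 4.17% of untreated 1 alone and 2.79% of chromium 1 alone. The sets shared with a number 2 list were also near starts. The share was 19.6% (41 of 209; 14.5 to 25.7) for all lists but chromium 2 and 14.8% (27 of 183; 9.95 to 20.7) for both untreated lists only.

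Members near a start lay mostly upstream of it. Of the 101, 82 (81.2%; 72.2 to 88.3) had their midpoint before the start and 19 at or after it, with a median position of -129 bp. For single-list sites near a start the upstream share was 56.1% (226 of 403; 51.1 to 61.0) in untreated 1 alone and 50.6% (180 of 356; 45.2 to 55.9) in chromium 1 alone. The member interval lay above both. In the bins next to the start, 42 members lay 0 to 200 bp upstream and 5 lay 0 to 200 bp downstream, while the counts were 107 and 49 in untreated 1 alone and 67 and 35 in chromium 1 alone. The upstream excess reached further: 200 to 400 bp upstream the share was 2.57% of members (19 of 739), against 0.321% and 0.227%, and 600 to 800 bp upstream it was 1.49% (11 of 739), against 0.290% and 0.227%. Downstream, within 1 kb, the member share was above both single-list shares in every bin but 200 to 400 bp. In that bin it was 0.135% (1 of 739), below 0.331% and 0.274%. At 0 to 200 bp downstream it was 0.677%, against 0.507% and 0.274%. At 400 to 600 bp it was 0.812% (6 of 739), against 0.362% and 0.329%. At 600 to 800 bp it was 0.541% (4 of 739), against 0.321% and 0.258%. At 800 to 1000 bp it was 0.406% (3 of 739), against 0.311% and 0.235%. From 1 to 2 kb downstream the shares went both ways. The split by direction was chosen after the positions had been seen.

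**Figure D2:**
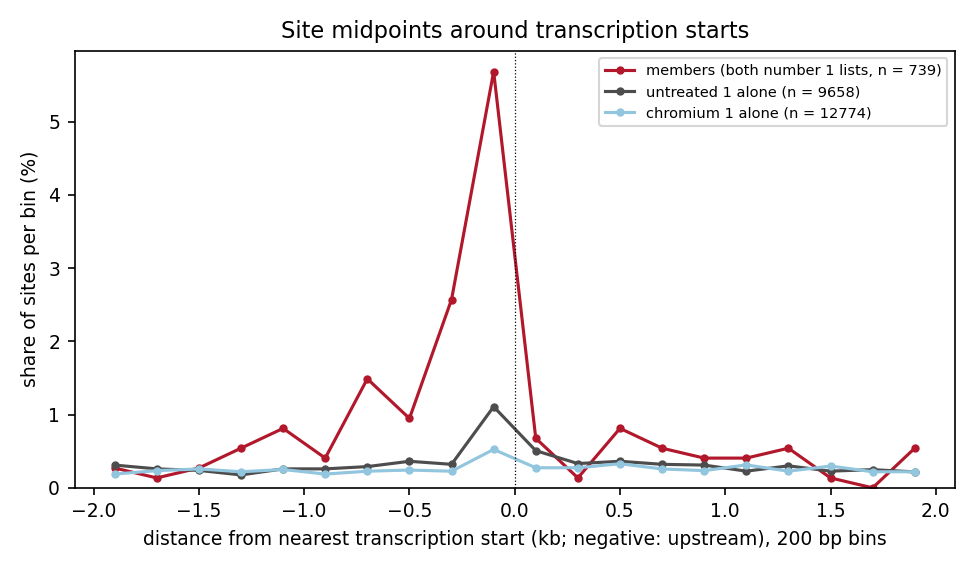
Share of sites (%) in 200 bp bins of signed distance from the site midpoint to the nearest transcription start, up to 2 kb either way and negative upstream, for members and for single-list sites of each number 1 list, chromosome 18 left out. Members peak at 5.68% in the bin just upstream of the start and drop to 0.677% in the bin just downstream.

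Scores moved with the gene-end share and are given beside it. The score is a value per peak from the authors' peak caller, used here as a percentile within its list. In the highest of 5 equal classes of score, 20.6% of members (80 of 389) were at a gene end by the untreated 1 score, against 9.24% of single-list sites. By the chromium 1 score the values were 22.1% (82 of 371) and 6.04%. In the lowest class they were 7.58% (5 of 66) against 5.12% in untreated 1 and 11.5% (9 of 78) against 4.79% in chromium 1. The member value was above the single-list value in each of the 5 classes of both lists, although in the lowest 2 classes of each list the intervals overlapped. Weighted to the members' scores, the difference was 9.39 percentage points in untreated 1 and 11.4 in chromium 1, against 10.7 and 11.8 without classes.

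**Figure D3:**
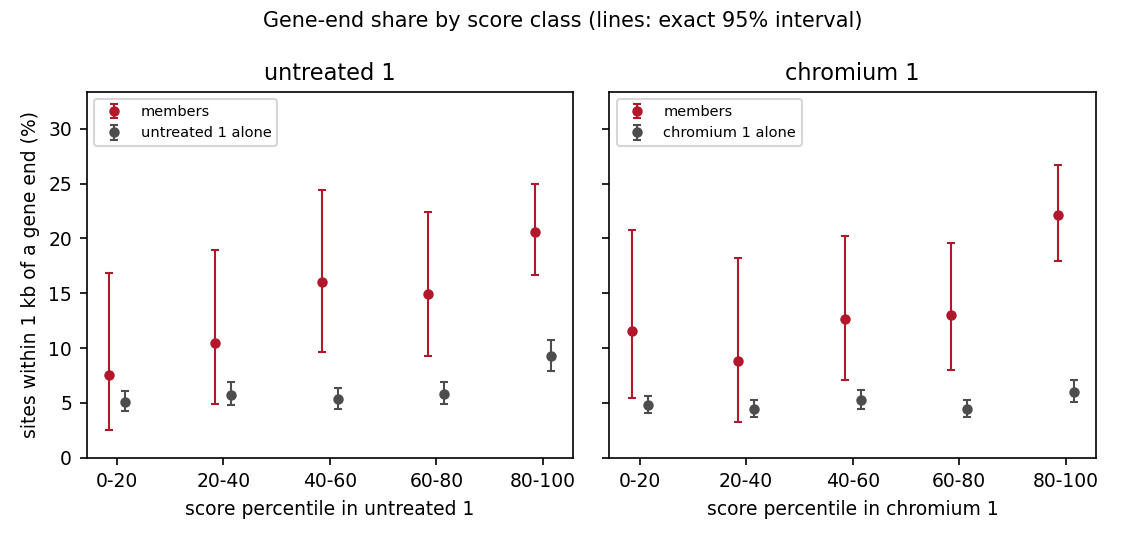
Share of sites (%) within 1 kb of a gene end in 5 classes of score percentile, for members and single-list sites of untreated 1 (left) and chromium 1 (right), with exact 95% intervals as lines. Members lie above single-list sites in every class, and their share is highest in the top class (20.6% and 22.1%).

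The 130 sites touched the ends of 154 genes, 0.712% of the 21631 protein-coding genes on these chromosomes, and 25 sites lay at the ends of 2 genes at once. The site with the highest mean percentile among them was inside Gdf15 (chr8:70629741-70630174), a stress-induced cytokine of the TGF-beta family, 564 bp from an end of the gene. Its score was 22.4 in untreated 1 and 12.9 in chromium 1. The next was at the ends of Exd1 and Chp1 (chr2:119546941-119547261), scored 11.02 and 12.3. Chp1 encodes a calcium-binding partner of sodium-proton exchangers. The Kifc5b site (chr17:26916566-26916953) was 332 bp from the gene's start, scored 13.9 and 10.01.

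Others of the 20 best-scored gene-end sites were at genes of varied function. The site shared by Dtl and Ints7 (chr1:191575873-191576277) scored 9.46 in untreated 1 and 14.5 in chromium 1. Dtl directs a ubiquitin ligase that degrades replication licensing factors, and Ints7 is a subunit of Integrator, which ends short transcripts of RNA polymerase II. Bms1, a GTPase of ribosome assembly, had a site 60 bp from an end (7.45 and 14.5). Ing5, a reader of histone methylation, had one 69 bp away (7.45 and 10.01). Taf1c, a subunit of the RNA polymerase I promoter factor, had one at 112 bp (8.09 and 7.33). The site of Rpl36, a ribosomal protein, and Lonp1, a mitochondrial protease, scored 8.10 and 7.33.

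Membrane traffic and autophagy genes were also among the 20 best-scored gene-end sites. Atg101, part of the complex that starts autophagy, had a site 405 bp from its start (13.9 and 8.91). Sh3gl1, an endophilin of endocytosis, had one 106 bp from its start (7.45 and 14.5). Gorasp2, which stacks Golgi cisternae, had one 97 bp from its start (7.45 and 11.4). Snapin, a partner of the vesicle fusion machinery, had one 103 bp from a gene end (7.04 and 12.9). By rank within the list, Sh3gl1 stood at percentile 93.6 in untreated 1 and 99.8 in chromium 1, and Atg101 at 99.4 and 98.0. Over all members the percentile was higher in untreated 1 at 393 sites and in chromium 1 at 381.

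The other sites of the 20 were at Aanat, the acetyltransferase on the path to melatonin (10.2 and 17.8), Ubtd1 with Ankrd2 (12.7 and 8.97), Tmem106c (21.8 and 8.03), Tmem170, Ppdpf, 1700001O22Rik, Ciao3, a factor of cytosolic iron-sulfur assembly, and Slc26a8 with Mapk14. Mapk14 encodes the stress kinase p38 alpha, and its site (chr17:28690913-28691297) scored 8.31 and 7.33. Tmem106c was the only gene with a pair of member sites at its ends, the second scored 5.62 and 4.63.

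**Figure D4:**
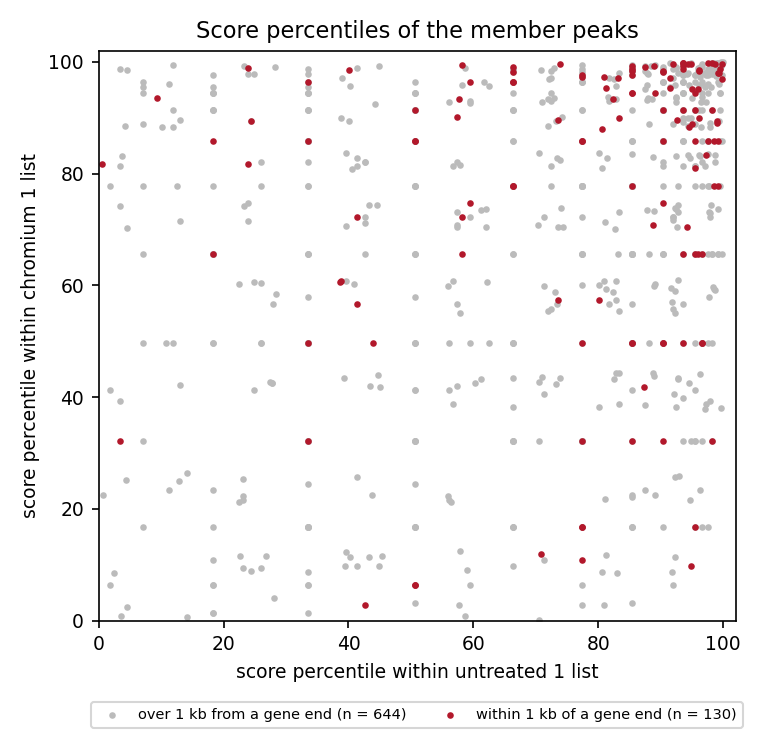
Score percentile of each of the 774 members within the chromium 1 list (vertical) against that within the untreated 1 list (horizontal), with the 130 members within 1 kb of a gene end in red; points on straight lines are peaks with tied scores. Points gather in the upper right corner, where 126 members are over the 90th percentile in both lists.

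Among 16 gene lists of 603 genes drawn up for this cell line and treatment, 601 genes matched and 10 (1.66%) had a member at an end, beside 0.712% of all protein-coding genes. In 8 of the lists no gene did: hepatocyte genes, NRF2 and redox genes, cell cycle, Hox, imprinted and boundary loci, markers of other cell types, metal and anion transporters, and the respiratory chain. RNA polymerase II and splicing gave 3 of 52: Polr2h, a subunit common to the nuclear RNA polymerases, Cdk9, the kinase that releases paused polymerase, and Med4 of Mediator. Their sites scored 5.62 and 3.40, 4.59 and 6.67, and 13.1 and 6.10 in untreated 1 and chromium 1 respectively.

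The 7 remaining lists with a gene gave 1 each. Cyp1b1, a cytochrome P450 induced through the aryl hydrocarbon receptor, had a site 730 bp from its start (6.72 and 7.33). Mdm2 had one 24 bp from its start (5.76 and 7.39). Mus81, a structure-specific endonuclease of replication fork repair, had one 396 bp from a gene end (6.21 and 7.33). Esco1, which acetylates cohesin, had one 405 bp from a gene end on chromosome 18, where starts are not recorded (8.77 and 4.41). Psmd1 of the proteasome had one at 275 bp (5.04 and 5.51), and Rpl36 and Mapk14 are described above. Hnf4a, Klf4, Slc39a8 and Cdkn1a had members between their ends only.

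The 154 genes were also sorted by known role after they had been seen, which carries no test, and the share of each role over all protein-coding genes was not counted, so the counts only describe the genes. Signalling held 17, transcription and chromatin 14, RNA processing and translation 12, mitochondrial proteins 10, DNA damage, replication and cohesion 9, and trafficking and autophagy 9. Transport held 6, ubiquitin and proteasome 5 and carbohydrate and drug metabolism 3, and 69 genes were not placed. Gm13283, Gm13290 and Gm13275, on chromosome 4, may be near-copies of one another, so reads there may be placed uncertainly. Of the 154 genes, 4 (Otos, Clcn2, Rpl36 and Rab12) also had a separate untreated 2 peak at an end and 0 a chromium 2 peak. The share of all protein-coding genes with such a peak was not counted. The rule also leaves out any site that a number 2 peak overlaps, so these counts only describe the genes.

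Most members were away from gene ends. Only protein-coding genes were counted here. Inside genes but over 1 kb from their ends lay 283 (36.6%), and outside genes, also over 1 kb from an end, lay 361 (46.6%). Over 50 kb from any protein-coding gene there were 75 members (9.69%; 7.70 to 11.99), against 21.1% of untreated 1 alone and 23.3% of chromium 1 alone. Low shares were not particular to members. Sites in all lists but chromium 2 gave 6.36% (14 of 220; 3.52 to 10.4) and those in both untreated lists only 10.1% (20 of 198; 6.28 to 15.2). The best-scored of all members was 64.7 kb from the nearest protein-coding gene, Cr2, a complement receptor (chr1:195241424-195241787), with 34.6 in both lists. It was followed among the distant sites by those nearest Tuba1c, an alpha tubulin (20.6 and 13.1), Gm15319 (12.9 and 15.7), Esp38 (13.5 and 13.3), Zfp64 (17.3 and 11.3) and Rfc3, a clamp loader subunit (12.8 and 10.4). The Esp38 site was 104.5 kb from that gene and had an untreated 2 peak 0.105 kb away. Whether reads at these distant sites can be placed uniquely was not checked.

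Members between gene ends fell in 269 protein-coding genes. Gse1 and Pdzd2 held 3 each and 11 genes held 2, of which Myh7b, Egflam, Kcnip3 and Slc39a8 had the highest mean percentiles. Slc39a8, a zinc and manganese importer, held one site scored 10.2 and 3.89 and one scored 4.97 and 7.97. Ends of long non-coding RNA genes were within 1 kb of 32 members (4.13%). Members overlapped 3 microRNA hairpins of 1005, Mir1928, Mir6976 and Mir6380. The counts of genes with a member between their ends, long non-coding RNA ends and hairpins were not made for other sites. They therefore only describe the members.

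Member peaks ranked high in both number 1 lists. Their median percentile was 80.2 in untreated 1 and 77.8 in chromium 1, and for single-list sites 50.7 and 49.6. In 444 members (57.4%) both peaks were in the upper part of their list, above the median, and in 78 both were below it. The rank in one list said little about the rank in the other: across the 774 sites Pearson's r of the percentiles was 0.275 and Spearman's rho of the scores 0.310, and 127 members (16.4%) were over 50 points apart. These sites share their input sample and the requirement of a peak in both lists.

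Member peaks were wider than single-list peaks, and a rule that asks for overlap favours wide peaks. The median width was 259 bp in untreated 1 and 252 bp in chromium 1, against 224 and 222 bp at single-list sites. The shortest width in these lists, 209 bp, was held by 14.99% and 16.1% of member peaks and by 37.9% and 40.3% of single-list peaks. Width rises with score, and weighted over the 5 score classes the difference was 25.5 bp in untreated 1 and 16.3 bp in chromium 1, in place of 35 and 30 bp. The peaks of a member overlapped by a median of 209 bp (7 to 540), and their midpoints were a median of 49 bp apart. Merged member sites had a median width of 334.5 bp, against 332 bp for sites in both untreated lists only and 377 bp for sites in all lists but chromium 2.

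Members followed the crowding of number 1 peaks by chromosome in part. Chromosome 15 held the most, 102 members (13.2%; 10.9 to 15.8), close to the 13.1% and 12.9% of single-list sites. Chromosome 2 held 100 (12.9%; 10.6 to 15.5) against 9.41% and 9.06%, and chromosome 18 held 35 (4.52%; 3.17 to 6.23) against 7.60% and 6.77%. The member intervals of chromosomes 2 and 18 did not overlap those of either single list. On chromosome 2, 68 of 100 members were above 140 Mb, against 52.1% and 49.7% of single-list sites. That boundary was chosen after the positions were seen. Sites in all lists but chromium 2 had this too, with 40 of 220 (18.2%; 13.3 to 23.9) on chromosome 2 and 32 of those 40 (80%) above 140 Mb. On chromosome 18 the same set held 11 of 220 (5.00%; 2.52 to 8.77), an interval that overlapped those of the members and of both single lists.

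The higher gene-end share was spread over the chromosomes. It was above the single-list value on 17 of 20 chromosomes, and the other 3 (9, 12 and X) held 5 members between them. Few members lay close together: 24 (3.10%) were within 10 kb of another, and the median distance to the nearest other member was 254 kb.

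**Figure D5:**
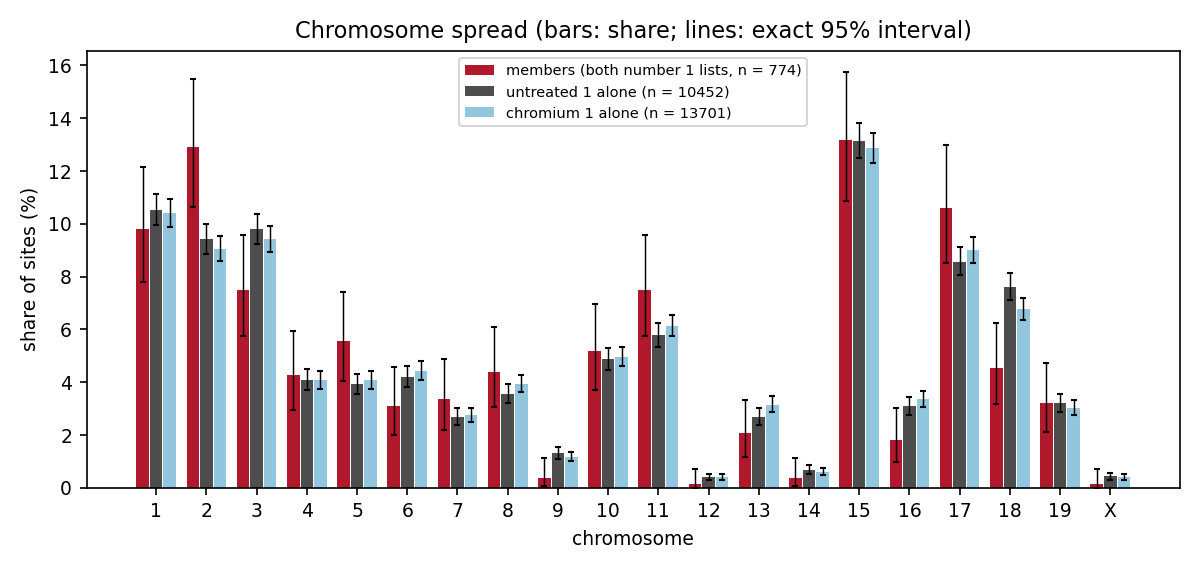
Share of sites (%) on each chromosome for members and for single-list sites of untreated 1 and chromium 1, with exact 95% intervals as lines. Members exceed both single-list sets on chromosome 2 (12.9%) and fall below them on chromosome 18 (4.52%), while chromosome 15 is alike in all 3 (13.2%, 13.1% and 12.9%).

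Some members had a number 2 peak close by. It was within 1 kb of 26 members (3.36%; 2.21 to 4.88), against 1.71% and 1.74% of single-list sites, and within 10 kb of 193 (24.9%; 21.9 to 28.1), against 15.6% and 14.6%. The number 2 lists are short, and absence from them cannot be told apart from lower depth in those libraries. Just inside the rule were the sites nearest Bmp7 (chr2:172831782-172832109), which had an untreated 2 peak 25 bp away, in Pfdn4, with a chromium 2 peak 38 bp away, and in Col18a1, with an untreated 2 peak 103 bp away. Just outside it, by an overlap of 29, 93 and 99 bp, were those at Def8, Spag16 and Rnf216. The Bmp7 site scored 8.71 and 8.57 in untreated 1 and chromium 1, and the Def8 site 8.10 and 8.63.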

How the data were processed

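CTCF chromatin immunoprecipitation libraries, 2 untreated and 2 chromium, were analysed as deposited peak lists; the 2 input samples were not analysed here. Groups and numbers came from the sample titles. Bowtie, MACS2 and the mm10 build are named, per the submitters' processing notes. Their versions and thresholds, and the reads per library, were not given in the sources used here. Each deposited list gives positions and a score per peak, produced by the authors' peak calling on an unstated scale, so it served only to rank or filter peaks within a list. Judging by the peak names, calling was done library by library. One chromium 1 peak on Y and 14 untreated 2 peaks off the chromosomes used were left out.

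Peaks of different lists overlapping by at least 1 bp were merged. Genes, promoter windows and microRNA hairpins came from RefSeq on GRCm38.p6. The promoter starts were checked by strand: 49.0% on the plus strand and 49.6% on the minus strand equal the end of the gene record, and 0 lie outside it. The rest are starts within the gene. Distances run from the site midpoint. Merging was tested on simulated peaks, and the distance to a gene end was checked only at the ends of a single gene record. Python 3.11.15, numpy 2.4.6, pandas 2.3.3, scipy 1.17.1 and matplotlib 3.10.9 were used.

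Members and lists were chosen with earlier results of these data known. The text names the 20 gene-end sites and the 6 sites over 10 kb from any protein-coding gene with the highest mean percentile. It also names listed genes with a member at an end, genes with several members, and the 3 sites nearest each side of the rule. It names the 6 genes with most members between their ends, ties settled by mean percentile, a choice made later. The grouping by role, the comparison with GC-rich windows, the direction from the start and the genes whose sequences are shown were also chosen after the values were seen. Alternatives were another overlap, score, window or absence rule, omission of a number 2 list, equal list lengths, score classes and omission of 3 chromosomes.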

Additional observations from a re-analysis of the deposited data

How the results depend on the processing

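Of 60 alternative values of 13 results, 38 stayed within tolerance, 22 moved and 0 changed sign. The tolerance was 1.5 times for the number of members and the 95% interval of the reported value for the other results. The 8 alternatives for the upstream share and the promoter letters were added after seeing the data. Keeping the peaks not below the median score of their list left 484 members, with a gene-end share of 20.0%, a difference of 14.8 points from chromium 1 alone, widths of 273 bp and 259 bp in untreated 1 and chromium 1, and a width difference of 41 bp in untreated 1. A score floor of 5 left 377 members, a gene-end share of 22.0%, differences of 13.8 and 16.0 points from the single lists, widths of 278 bp and 262.5 bp, and a width difference of 18.5 bp in chromium 1. A window of 500 bp gave 11.8% at gene ends, 9.14 points above chromium 1 alone, and 89.3% upstream. A window of 2.5 kb gave 28.2%, 15.4 and 16.9 points, and 71.5% upstream. Within 5 score classes the width differences were 25.5 and 16.3 bp. Without untreated 2 or chromium 2 the number of members was 994 or 784, the gene-end share 18.4% or 16.6%, the chromosome 15 share 14.1% or 13.1%, and that of chromosomes 15, 17 and 18 together 29.6% or 28.4%.

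No paired analysis was possible because members have peaks only in the number 1 libraries and no result comes from a test. Untreated 1 and chromium 1 cannot be left out, since the rule needs both. Read depth is unknown, and the number cannot be told apart from the input. Members rest on 1 library per group, and chromium effects were not measured here. Intervals cover counting error only, and neighbouring peaks are not independent. Sequence was searched only in promoter windows, which miss chromosome 18 and many genes of chromosome 15.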
